A study of Homo sapiens with 12 samples.

Results

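The genes described here are 41 antioxidant genes of the NRF2, glutathione and thioredoxin systems, given by a list of gene symbols; aldo-keto reductases were left out. They were read in MDA231 cells, a human triple-negative breast cancer line also written MDA-MB-231, on 12 single-colour Affymetrix arrays, 3 in each of 4 groups. Of the 41 genes, 39 had at least 1 probe set that the platform annotation gives to a single gene, and 38 had a probe set bright enough to be tested, of 12886 genes tested in all. FTH1 and PRDX5 had no such probe set and ABCC2's exceeded the array median on 0 arrays, so these genes are not analysed here.

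The scramble group carried a control shRNA with no intended target, the ETX group carried the same construct and was treated with ETX, and the shCPT-1 and shCPT-2 groups carried shRNAs against CPT1 and CPT2. The shRNAs were delivered with pGIPZ lentivirus. ETX is taken here to be etomoxir, an inhibitor of carnitine palmitoyltransferase 1 (CPT1), since the labels do not spell it out; both carnitine palmitoyltransferases take part in moving fatty acids to where mitochondria burn them. The labels name no vehicle for the scramble arrays, no isoform of CPT1, no clone or number of shRNAs, and no dose or time of ETX for the cells on the arrays. Whether a group's 3 arrays stem from independent cultures is not stated, so the p-values reflect array-to-array spread alone, and that spread can be technical. Total RNA of whole cultures was measured, so fewer cells with a transcript and less of it per cell cannot be told apart.

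NRF2, encoded by NFE2L2, is a transcription factor that KEAP1 holds in the cytoplasm and directs to degradation; oxidants and electrophiles modify KEAP1, and NRF2 then enters the nucleus and binds antioxidant response elements near its target genes. Those targets make glutathione, reduce quinones, break down haem, supply NADPH and keep thioredoxin reduced. NRF2 is controlled largely as a protein, which arrays do not measure.

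The core of the antioxidant response element, TGACNNNGC (N is any base), was searched on both strands of RefSeq promoter windows of GRCh38.p14 that run from 250 bases before to 50 after an annotated start. At least 1 window was found for 32 of the 41 genes, and the core occurred in a window of 9 of these 32 (28.1%), against 16.1% of 27305 genes with a window. A gene can have several windows. Counted by window, the core occurred in 10 of the members' 48 (20.8%), against 13.35% of 35116 windows. Shown are 4 of the matches, from 3 genes that rose with ETX and from KEAP1, which fell, because they let the element be seen beside genes whose values follow. Each sequence is written along the gene, with the core or its reverse complement in capitals:
GCLM: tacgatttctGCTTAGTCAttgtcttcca
TXNRD1: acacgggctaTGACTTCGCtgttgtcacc
ME1: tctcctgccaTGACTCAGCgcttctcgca
KEAP1: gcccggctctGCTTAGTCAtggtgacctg
The GCLM stretch is chr1:93909446-93909474 on the minus strand, with the core 34 to 26 bases before the start. The TXNRD1 stretch is chr12:104215670-104215698 on the plus strand, with the core 99 to 91 bases before 1 of its 2 starts. The ME1 stretch is chr6:83431170-83431198 on the minus strand (137 to 129 bases before the start), and the KEAP1 stretch is chr19:10502784-10502812 on the minus strand (31 to 23 bases before the start). Among tested genes with a window, the core was found in 4 of 15 that rose with ETX (26.7%: GCLM, TXNRD1, ME1 and MGST1), in 1 of 5 that fell (KEAP1) and in 4 of 10 that were not called (40%: EPHX1, GSTO1, GSTP1 and PGD). A match describes letters in a window and not a bound site, and a window without a match leaves out elements farther away.

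Median intensities of the arrays were 74.92 to 77.2 after RMA, which usually scales arrays to each other, so their likeness is no check of quality. All 6 genes chosen as typical of MDA231 cells lay above the array median on every array. Of 5 genes chosen as absent from the line, PGR and CDH1 lay below the median on all arrays, whereas ESR1, EPCAM and GATA3 lay above it on all. Markers of other cells were mixed: of leukocytes PTPRC and CD14 lay below the median on all arrays and CD3E above it on all, of endothelium CDH5 and VWF below and PECAM1 above, and of fibroblasts COL3A1 below, COL1A1 above, and PDGFRB above on 7 of 12. The targeted genes followed their labels: CPT1A differed by -1.59 ± 0.08 (SE) log2 units in shCPT-1 and CPT2 by -1.0 ± 0.10 in shCPT-2 (limma adjusted p = 1.97e-08 and 5.46e-06). CPT1A was 1.11 ± 0.08 higher with ETX (adjusted p = 1.46e-06). Correlations between arrays of a group were 0.992 to 0.998, and between groups 0.972 to 0.991.

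With ETX, GCLC and GCLM of the first step of glutathione synthesis, TXNRD1, which reduces thioredoxin, and HMOX1, which breaks down haem, were higher than in scramble, and GSS of the second step and TXNIP, the inhibitor of thioredoxin, were lower. Of the 38 genes 20 rose and 7 fell, against 21.9% and 19.4% of all tested genes; the members' shares were 52.6% and 18.4%. Their median change was 0.14 log2 units, against -0.01 over all tested genes. In 32 of the 38 the 3 ETX arrays did not overlap the 3 scramble arrays, against 49.5% of all tested genes. A rise of at least 0.5 log2 units was called in 10 members, and a fall of that size in 1, against 4.07% and 1.11% of all tested genes. The members were chosen with earlier results of these data known, so these shares are not an independent test. Here and below, a change is a difference of mean log2 intensity with its standard error from limma over 3 arrays a group, and rose or fell means an adjusted p under 0.05.

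Both knockdowns gave a different picture. In shCPT-1 7 members rose and 10 fell, against 23.1% and 18.0% of all tested genes, with a median change of -0.05 (0.01 over all genes). In shCPT-2 8 rose and 12 fell, against 25.6% and 20.5% of all tested genes, with a median of -0.07 (0.00 over all genes). As shares of the 38 members these were 18.4% and 26.3% in shCPT-1 and 21.1% and 31.6% in shCPT-2. Members without overlap from scramble numbered 24 in shCPT-1 and 25 in shCPT-2, against 51.1% and 52.4% of all tested genes. Changes of at least 0.5 log2 units were called in 0 members either way in shCPT-1 (4.55% of all tested genes higher, 3.39% lower), and in shCPT-2 in 1 higher and 2 lower (5.15% and 5.21%). The 3 comparisons share the scramble arrays. In the F test over the 4 groups 32 of 38 members differed, against 69.8% of all tested genes. The mean was highest in ETX for 22 members, in scramble for 9, in shCPT-1 for 5 and in shCPT-2 for 2. This tally was not made over all tested genes, so it cannot be set against them.

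**Figure D1:**
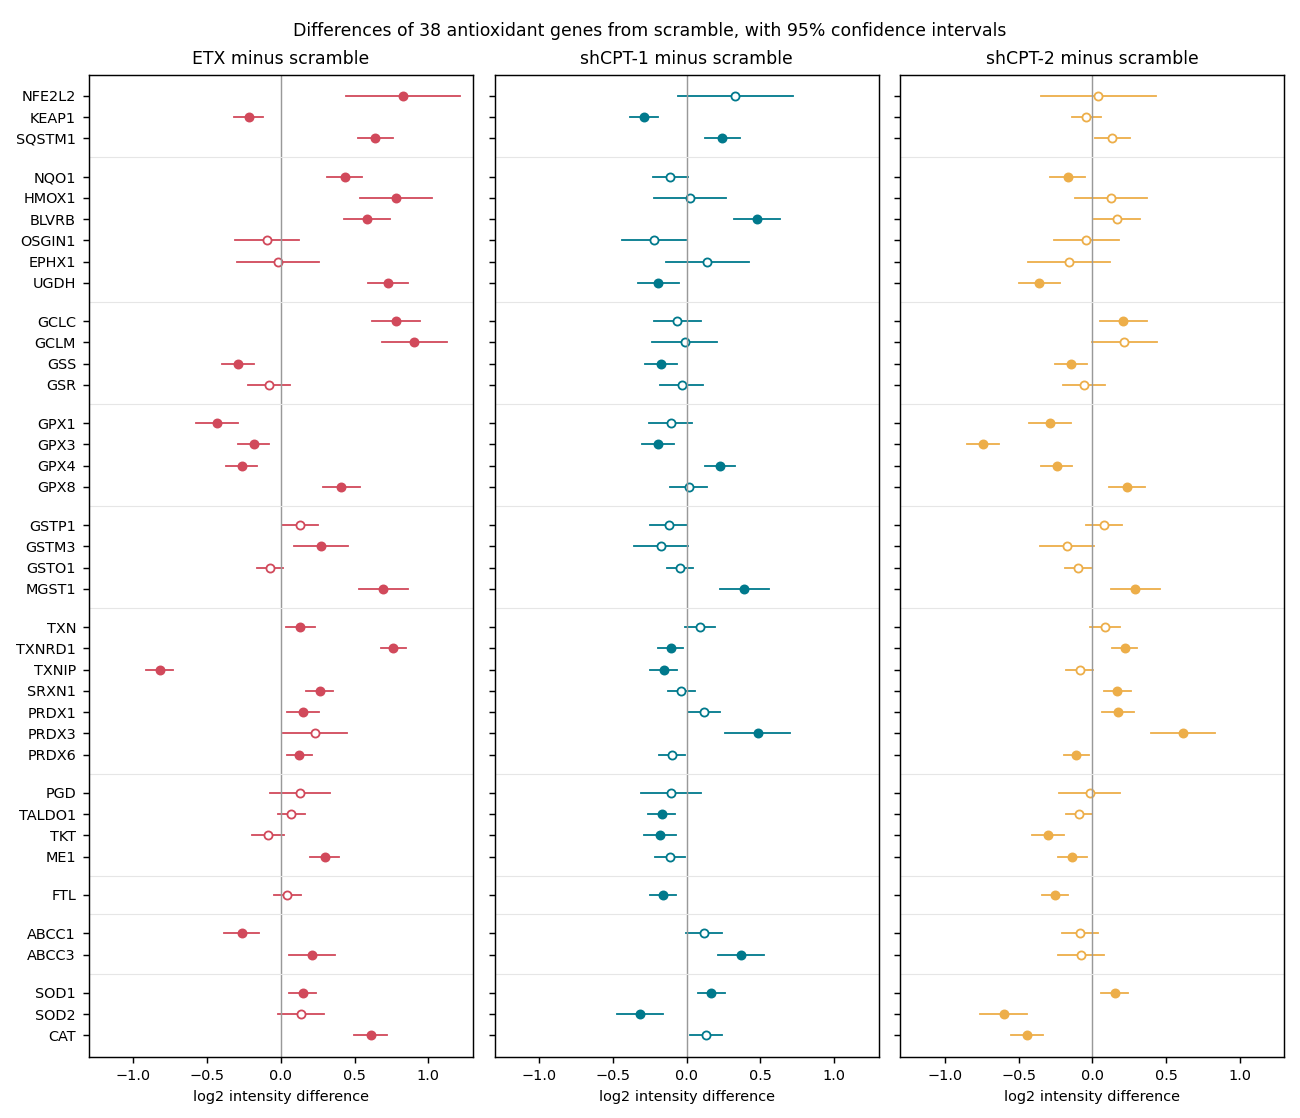
Difference of mean log2 intensity from scramble (x axis, log2 units) for each of the 38 tested genes, grouped by role from top to bottom, in ETX, shCPT-1 and shCPT-2; lines are 95% confidence intervals and filled points are called at an adjusted p under 0.05. In the ETX panel 20 points are filled to the right of 0 and 7 to the left, with GCLM at 0.90 and TXNIP at -0.82 the farthest out.

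Among the regulators, NFE2L2 itself rose with ETX. Its log2 intensity was 10.21, 10.45 and 10.86 on the scramble arrays, 11.35, 11.38 and 11.28 with ETX, 11.09, 10.75 and 10.68 in shCPT-1 and 10.83, 10.17 and 10.66 in shCPT-2. All 3 ETX arrays lay above all other arrays, while each knockdown overlapped scramble. The change with ETX was 0.83 ± 0.18, or 1.78-fold (adjusted p = 0.00319), and the changes in shCPT-1 and shCPT-2 were 0.33 ± 0.18 and 0.04 ± 0.18 (adjusted p = 0.162 and 0.872). Without scramble 3 NFE2L2 rose in shCPT-1 too, by 0.51 (adjusted p = 0.031; over its alternatives 0.00679 to 0.908). NFE2L2 had the widest spread of the members within scramble, 0.33 log2 units (SD), and its other kept probe set, a dim one, differed by 0.10 with ETX and was not called.

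KEAP1, the adaptor that sends NRF2 to degradation, moved the other way. It read 9.84, 9.91 and 9.92 in scramble, 9.65, 9.63 and 9.73 with ETX, 9.58, 9.61 and 9.61 in shCPT-1 and 9.84, 9.89 and 9.81 in shCPT-2. The ETX and shCPT-1 arrays lay below every scramble array and the shCPT-2 arrays overlapped them. KEAP1 fell by 0.22 ± 0.04 with ETX (adjusted p = 0.00258) and by 0.29 ± 0.04 in shCPT-1 (adjusted p = 0.000267), and differed by -0.04 ± 0.04 in shCPT-2 (adjusted p = 0.491).

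SQSTM1 encodes p62, an autophagy receptor that binds KEAP1. Its scramble arrays read 10.67, 10.66 and 10.7, its ETX arrays 11.3, 11.35 and 11.31, its shCPT-1 arrays 11, 10.92 and 10.85 and its shCPT-2 arrays 10.88, 10.7 and 10.85. Both ETX and shCPT-1 lay above scramble without overlap. SQSTM1 rose by 0.64 ± 0.05 with ETX (1.56-fold, adjusted p = 6.92e-06) and by 0.24 ± 0.05 in shCPT-1 (adjusted p = 0.00352), and differed by 0.13 ± 0.05 in shCPT-2 (adjusted p = 0.0603; called without shCPT-2 2, at 0.19). Its 4 kept probe sets were unlike: 2 rose with ETX, by 0.64 and 0.80, and the others differed by 0.26 and -0.16 and were not called. In both knockdowns the sign depends on the probe set, with values from -0.15 to 0.24 in shCPT-1 and from -0.36 to 0.18 in shCPT-2.

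In the quinone and haem group 4 of 6 tested genes rose with ETX and 0 fell (21.9% and 19.4% of all tested genes). HMOX1, the inducible haem oxygenase, read 7.31, 7.64 and 7.43 in scramble, 8.35, 8.3 and 8.07 with ETX, 7.28, 7.51 and 7.66 in shCPT-1 and 7.73, 7.56 and 7.46 in shCPT-2. Only the ETX arrays stood apart from scramble. Its change with ETX was 0.78 ± 0.11, or 1.72-fold (adjusted p = 0.000252), against 0.03 ± 0.11 in shCPT-1 and 0.12 ± 0.11 in shCPT-2 (adjusted p = 0.88 and 0.394).

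BLVRB, a biliverdin and flavin reductase, was higher in ETX and in shCPT-1. Arrays of scramble gave 8.84, 8.66 and 8.84, of ETX 9.36, 9.44 and 9.3, of shCPT-1 9.37, 9.19 and 9.21 and of shCPT-2 9.05, 8.86 and 8.93. In no treated group did the arrays overlap scramble. BLVRB rose by 0.59 ± 0.07 with ETX and by 0.48 ± 0.07 in shCPT-1 (adjusted p = 8.96e-05 and 0.000209), while the 0.17 ± 0.07 in shCPT-2 missed the threshold (adjusted p = 0.077), which it passed without shCPT-2 2 (0.21).

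UGDH makes UDP-glucuronic acid for the conjugation of foreign compounds. It read 10.01, 10.14 and 10.18 in scramble, 10.87, 10.8 and 10.84 with ETX, 9.88, 9.95 and 9.94 in shCPT-1 and 9.87, 9.63 and 9.76 in shCPT-2. ETX lay above scramble and both knockdowns below it, without overlap. The rise with ETX was 0.73 ± 0.06 (1.65-fold, adjusted p = 7.86e-06), and UGDH fell by 0.36 ± 0.06 in shCPT-2 (adjusted p = 0.000508). It fell by 0.19 ± 0.06 in shCPT-1 (adjusted p = 0.0287), a call lost without any 1 of 5 arrays (all of shCPT-1, and scramble 2 and 3; adjusted p up to 0.0903).

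NQO1, the quinone reductase often used as a readout of NRF2, had a smaller range. It rose by 0.43 ± 0.05 with ETX (1.35-fold, adjusted p = 0.000104) and fell by 0.17 ± 0.05 in shCPT-2 (adjusted p = 0.0234), a call lost without scramble 3 or shCPT-2 2 (adjusted p up to 0.0888). NQO1 differed by -0.11 in shCPT-1 and was not called (adjusted p = 0.127). All 3 of its kept probe sets rose with ETX, by 0.22 to 0.51. Under knockdown they were unlike in size. A probe set nearly as bright (mean 11.98 in scramble, against 12.10) was called lower with either shRNA. Its changes were -0.35 for shCPT-1 and -0.40 for shCPT-2 (limma p adjusted over all kept probe sets, 7.75e-05 and 1.78e-05). The dimmest differed by -0.09 and -0.12 and was not called. EPHX1, microsomal epoxide hydrolase, and OSGIN1, an oxidative stress-induced growth inhibitor, passed the test in none of the comparisons against scramble; their changes ran from -0.22 to 0.14.

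Glutathione is made in 2 steps, and the genes of the first, rate-limiting step rose with ETX while the gene of the second fell. GCLM, the modifier subunit of glutamate-cysteine ligase, read 10.45, 10.56 and 10.91 in scramble, 11.52, 11.46 and 11.66 with ETX, 10.7, 10.59 and 10.6 in shCPT-1 and 10.93, 10.75 and 10.89 in shCPT-2. ETX lay above all other arrays, and both knockdowns overlapped scramble. With ETX the change was 0.90 ± 0.10, or 1.87-fold (adjusted p = 4.79e-05), the largest rise of a member; it was -0.01 ± 0.10 in shCPT-1 and 0.22 ± 0.10 in shCPT-2 (adjusted p = 0.942 and 0.102). Without scramble 3 GCLM rose in shCPT-2 by 0.35 (adjusted p = 0.00254; over its alternatives 7.74e-05 to 0.919).

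GCLC, the catalytic subunit of the same enzyme, followed GCLM with ETX. Scramble arrays read 8.87, 9.03 and 9.17, ETX arrays 9.84, 9.75 and 9.83, shCPT-1 arrays 9.01, 8.96 and 8.92 and shCPT-2 arrays 9.3, 9.11 and 9.3. Here too ETX alone lay clear of scramble. GCLC rose by 0.78 ± 0.07 with ETX (1.72-fold, adjusted p = 1.41e-05). In shCPT-2 it rose by 0.21 ± 0.07 (adjusted p = 0.0348), a call lost without scramble 1 or 2 or shCPT-2 1 or 3 (adjusted p up to 0.154) or with the 3′ minus 5′ signal of the array's actin controls as a covariate (0.06, adjusted p = 0.475, the highest of its alternatives), and in shCPT-1 it differed by -0.06 ± 0.07 (adjusted p = 0.528).

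GSS, glutathione synthetase, fell by 0.29 ± 0.05 with ETX, 0.18 ± 0.05 in shCPT-1 and 0.14 ± 0.05 in shCPT-2 (adjusted p = 0.000844, 0.0143 and 0.0323). The shCPT-1 call was lost without scramble 1 and the shCPT-2 call without any 1 of 4 arrays (scramble 1 or 2, shCPT-2 1 or 3). GSR, the reductase that regenerates glutathione, differed by -0.08, -0.03 and -0.06 and was not called, but its dimmer probe set was called higher in all 3, by 0.37, 0.34 and 0.38.

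The glutathione peroxidases use glutathione to reduce peroxides. With ETX 3 of 4 fell and 1 rose (19.4% and 21.9% of all tested genes), and in shCPT-2 again 3 fell and 1 rose (20.5% and 25.6%). GPX3, which encodes a secreted peroxidase, read 9.93, 9.91 and 9.92 in scramble, 9.67, 9.74 and 9.8 with ETX, 9.67, 9.79 and 9.71 in shCPT-1 and 9.18, 9.23 and 9.12 in shCPT-2. All treated arrays lay below scramble, those of shCPT-2 farthest. The fall of GPX3 was 1.67-fold in shCPT-2, where it fell by 0.74 ± 0.05 (adjusted p = 1.8e-07); it fell by 0.18 ± 0.05 with ETX and 0.19 ± 0.05 in shCPT-1 (adjusted p = 0.0106 and 0.00713). The ETX call was lost without ETX 1 (adjusted p = 0.0509), and with the actin covariate both smaller changes, -0.13 with ETX and -0.14 in shCPT-1, were not called (adjusted p = 0.0679 and 0.0521, the highest of their alternatives).

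GPX1, the cytosolic peroxidase, fell by 0.43 ± 0.07 with ETX and 0.29 ± 0.07 in shCPT-2 (adjusted p = 0.000389 and 0.00307). GPX4, which reduces lipid peroxides in membranes and restrains ferroptosis, fell by 0.26 ± 0.05 with ETX and by 0.24 ± 0.05 in shCPT-2 but rose by 0.23 ± 0.05 in shCPT-1 (adjusted p = 0.00108, 0.00112 and 0.00213). GPX8, a peroxidase of the endoplasmic reticulum, rose by 0.41 ± 0.06 with ETX and by 0.23 ± 0.06 in shCPT-2 (adjusted p = 0.000216 and 0.00501). Its second probe set was called lower in shCPT-2, by -0.21 against 0.23, so the direction of GPX8 there depends on the probe set.

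MGST1, a membrane-bound glutathione transferase, led its group. It read 11.82, 12.01 and 12.17 in scramble, 12.71, 12.71 and 12.67 with ETX, 12.44, 12.35 and 12.38 in shCPT-1 and 12.33, 12.18 and 12.35 in shCPT-2. All treated arrays lay above all scramble arrays, with ETX highest. Its rise was 0.70 ± 0.08 with ETX (1.62-fold), 0.39 ± 0.08 in shCPT-1 and 0.29 ± 0.08 in shCPT-2 (adjusted p = 4.23e-05, 0.00145 and 0.00778). The probe set used carries the suffix _x, for probes that may also bind other transcripts. MGST1's only kept probe set without a suffix of this kind (_x or _s) rose by 0.48 with ETX but differed by -0.20 in shCPT-1 and -0.02 in shCPT-2.

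GSTM3, of a family with near-identical members that can share signal, rose by 0.27 ± 0.08 with ETX (adjusted p = 0.0221), a call lost without scramble 1, scramble 2 or ETX 2. With the actin covariate GSTM3 was at 0.11 with ETX and not called (adjusted p = 0.149), and lower in shCPT-1 (-0.34) and shCPT-2 (-0.36). GSTP1 and GSTO1, which conjugate glutathione to electrophiles and reduce its mixed disulfides, passed in none of the 3 comparisons, with changes from -0.12 to 0.13.

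**Figure D2:**
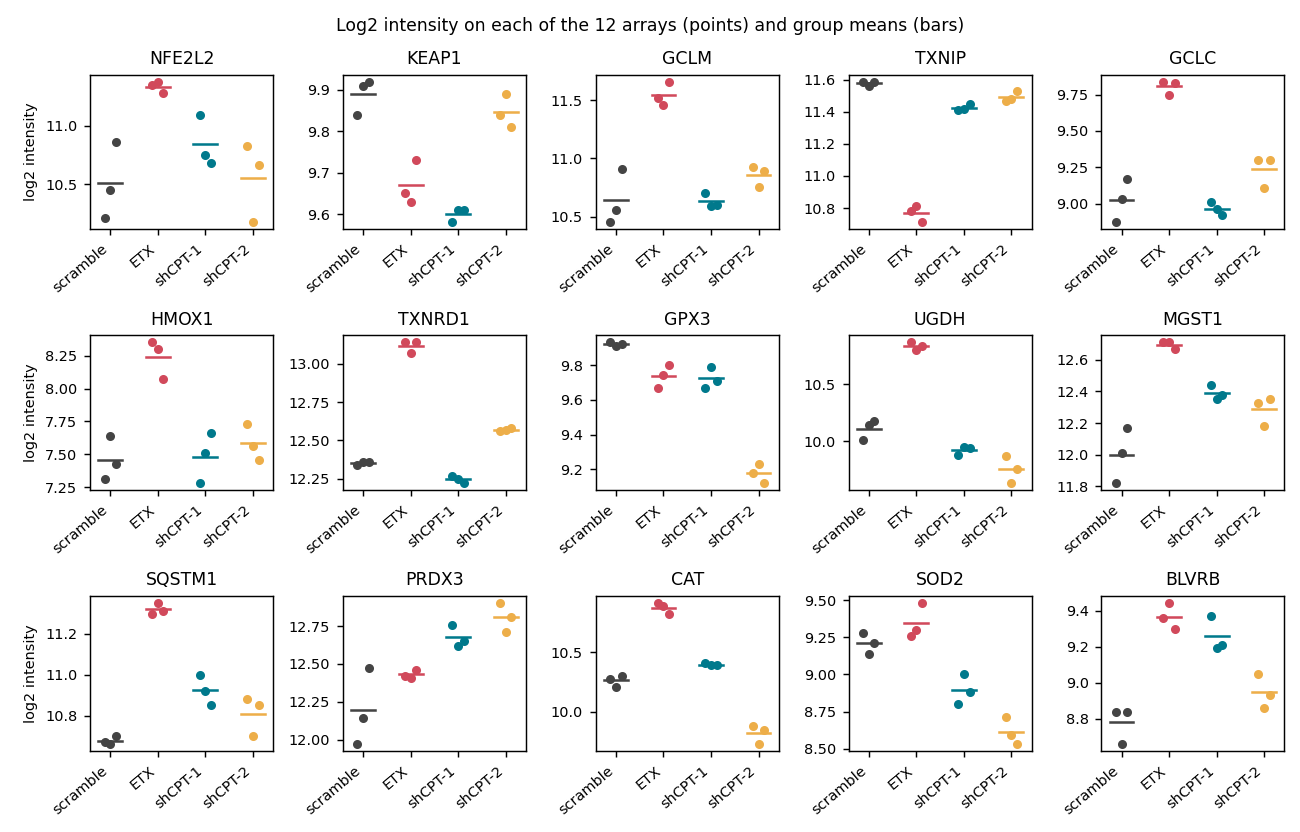
Log2 intensity (y axis) on each of the 12 arrays, 3 points a group with a bar at the group mean, for NFE2L2, KEAP1 and the 13 other genes described array by array; each panel has its own y range, so heights are not comparable between genes. For GCLM the ETX points lie at 11.46 to 11.66 and scramble at 10.45 to 10.91, and for TXNIP the ETX points lie at 10.71 to 10.81, below the other groups.

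In the thioredoxin system 5 of 7 tested genes rose with ETX and 1 fell (21.9% and 19.4% of all tested genes); of the 5, TXN, PRDX1 and PRDX6 were not called with the actin covariate. TXNRD1, the selenoenzyme that reduces thioredoxin with NADPH, read 12.34, 12.36 and 12.36 in scramble, 13.14, 13.07 and 13.14 with ETX, 12.27, 12.25 and 12.22 in shCPT-1 and 12.56, 12.57 and 12.58 in shCPT-2. No pair of groups overlapped, and the order from low to high was shCPT-1, scramble, shCPT-2 and ETX. TXNRD1 rose by 0.76 ± 0.04 with ETX (1.7-fold, adjusted p = 1.13e-07) and by 0.22 ± 0.04 in shCPT-2 (adjusted p = 0.000574). It fell by 0.11 ± 0.04 in shCPT-1 (adjusted p = 0.0448), but this call was lost in 9 of the 12 fits that left out 1 array (adjusted p up to 0.144).

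TXNIP, which binds reduced thioredoxin and also lowers glucose uptake, fell. Its arrays read 11.59, 11.56 and 11.59 in scramble, 10.78, 10.81 and 10.71 with ETX, 11.41, 11.42 and 11.45 in shCPT-1 and 11.47, 11.48 and 11.53 in shCPT-2. Every treated array lay below every scramble array. TXNIP fell by 0.82 ± 0.04 with ETX, 1.76-fold lower (adjusted p = 1.17e-07), and by 0.15 ± 0.04 in shCPT-1 (adjusted p = 0.0109), and differed by -0.09 ± 0.04 in shCPT-2 (adjusted p = 0.115). Its other 2 kept probe sets were called lower in every comparison with scramble, by -0.77 and -0.98 with ETX, -0.38 and -0.33 in shCPT-1 and -0.59 and -0.36 in shCPT-2.

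PRDX3, the mitochondrial peroxiredoxin, had its largest changes in the knockdowns. It read 11.97, 12.14 and 12.47 in scramble, 12.42, 12.41 and 12.46 with ETX, 12.76, 12.62 and 12.65 in shCPT-1 and 12.9, 12.71 and 12.81 in shCPT-2. Scramble 3 lay above all ETX arrays, and both knockdowns lay above scramble. PRDX3 rose by 0.48 ± 0.10 in shCPT-1 and 0.61 ± 0.10 in shCPT-2 (adjusted p = 0.00222 and 0.000313), and differed by 0.23 ± 0.10 with ETX (adjusted p = 0.0832). With ETX PRDX3 was at 0.37 and called without scramble 3 (adjusted p = 0.00151), and at 0.07 with the actin covariate (adjusted p = 0.587); over its alternatives adjusted p ran from 0.000808 to 0.587.

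SRXN1, sulfiredoxin, which restores over-oxidised peroxiredoxins, rose by 0.26 ± 0.04 with ETX and 0.17 ± 0.04 in shCPT-2 (adjusted p = 0.000494 and 0.00533). The remaining changes of the group were at most 0.17 in size. TXN, thioredoxin, rose with ETX, PRDX1 with ETX and in shCPT-2, and PRDX6 with ETX but fell in shCPT-2; each of these 5 calls was lost without at least 2 single arrays in turn.

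Of the NADPH-linked enzymes, ME1, cytosolic malic enzyme, rose by 0.30 ± 0.05 with ETX (adjusted p = 0.0004), and its second probe set by 0.80. In shCPT-2 ME1 fell by 0.14 ± 0.05 (adjusted p = 0.0276), a call lost without scramble 1 or 3 or shCPT-2 1 or 2, while the second probe set there was at 0.31 and not called. The pentose phosphate genes were not called with ETX: PGD, TALDO1 and TKT differed by 0.13, 0.07 and -0.09. TKT, transketolase, fell by 0.30 ± 0.05 in shCPT-2 and 0.18 ± 0.05 in shCPT-1 (adjusted p = 0.000374 and 0.0127; the latter lost without shCPT-1 2 or 3), and TALDO1, transaldolase, fell by 0.17 ± 0.04 in shCPT-1 (adjusted p = 0.00666).

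FTL, the ferritin light chain that stores iron, differed by 0.05 ± 0.04 with ETX and fell by 0.16 ± 0.04 in shCPT-1 and 0.25 ± 0.04 in shCPT-2 (adjusted p = 0.393, 0.00791 and 0.000298). FTL has many processed copies in the genome and its probe set has the suffix _x, so its signal is uncertain. Of the exporters of glutathione conjugates, ABCC1 fell by 0.26 ± 0.06 with ETX (adjusted p = 0.00279). Its other kept probe set, a dimmer one, differed by -0.05 with ETX and was not called, and was called higher in shCPT-1, by 0.16. ABCC3 rose by 0.37 ± 0.07 in shCPT-1 (adjusted p = 0.00146) and by 0.21 ± 0.07 with ETX (adjusted p = 0.0341), the latter lost without any 1 of 5 arrays (the 3 of scramble, ETX 1 and ETX 3). Another 3 of its 5 kept probe sets rose as well, by 0.30 to 0.52 with ETX and 0.36 to 0.83 in shCPT-1. The probe set used for ABCC3 also has the suffix _x. The remaining kept probe set has no suffix of this kind (_x or _s) and was about as bright (mean 7.27 in scramble, against 7.25). It differed by -0.04 with ETX and -0.12 in shCPT-1, was not called in either, and was called lower in shCPT-2 (-0.24).

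CAT, catalase, went up with ETX and down in shCPT-2. It read 10.28, 10.21 and 10.3 in scramble, 10.91, 10.89 and 10.82 with ETX, 10.41, 10.39 and 10.39 in shCPT-1 and 9.88, 9.73 and 9.85 in shCPT-2. The 4 groups did not overlap. The rise with ETX was 0.61 ± 0.05 (1.53-fold, adjusted p = 5.39e-06), CAT fell by 0.44 ± 0.05 in shCPT-2 (adjusted p = 1.68e-05), and the 0.13 ± 0.05 in shCPT-1 missed the threshold (adjusted p = 0.0526), which it passed without scramble 3, ETX 3 or shCPT-2 2. Its other kept probe set, a dimmer one, rose by 0.76 with ETX. That probe set differed by -0.19 in shCPT-2 and was not called, and was called higher in shCPT-1, by 0.33.

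SOD2, the mitochondrial superoxide dismutase, was lower in both knockdowns. It read 9.28, 9.14 and 9.21 in scramble, 9.26, 9.3 and 9.48 with ETX, 8.8, 9 and 8.88 in shCPT-1 and 8.71, 8.59 and 8.53 in shCPT-2. Both knockdowns lay below scramble, and ETX overlapped it. SOD2 fell by 0.32 ± 0.07 in shCPT-1 and 0.60 ± 0.07 in shCPT-2, in the latter 1.52-fold (adjusted p = 0.00401 and 2.69e-05), and differed by 0.14 ± 0.07 with ETX (adjusted p = 0.153). These values rest on 1 probe set; 4 more are annotated to several genes and were not used. SOD1, the cytosolic enzyme, rose by 0.15 ± 0.04 with ETX, 0.17 ± 0.04 in shCPT-1 and 0.15 ± 0.04 in shCPT-2 (adjusted p = 0.0136, 0.00666 and 0.0103), with the ETX and shCPT-2 calls lost without scramble 2.

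The treatments were also compared with each other, which leaves scramble out of the difference. ETX was above shCPT-1 in 19 members and below it in 4, against 19.8% and 22.9% of all tested genes, with a median difference of 0.21. Against shCPT-2 it was higher in 21 and lower in 5, against 20.9% and 24.9% of all tested genes, with a median of 0.19. These comparisons share the ETX arrays. The largest differences from shCPT-1 were UGDH and GCLM (both 0.92), TXNRD1 (0.87) and GCLC (0.85), and from shCPT-2 UGDH (1.08, or 2.12-fold) and CAT (1.05). Each of these 6 had an adjusted p of at most 1.39e-05 and was called whichever array was left out.

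NFE2L2 was higher with ETX than in shCPT-1 by 0.50 ± 0.18 (95% confidence interval 0.11 to 0.89, adjusted p = 0.0395) and than in shCPT-2 by 0.79 ± 0.18 (0.40 to 1.18, adjusted p = 0.00295). The former call was lost without any 1 of 6 arrays (all of ETX, scramble 2, shCPT-1 2 and 3; adjusted p up to 0.134). TXNIP was lower with ETX by 0.66 ± 0.04 than in shCPT-1 and by 0.73 ± 0.04 than in shCPT-2. No difference between ETX and shCPT-1 was called for KEAP1 (0.07, interval -0.03 to 0.17), BLVRB (0.11, -0.05 to 0.27) and GPX3 (0.01, -0.10 to 0.12), and those intervals bound the difference without making the groups alike. For SOD1 the intervals were -0.11 to 0.07 against shCPT-1 and -0.09 to 0.09 against shCPT-2.

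Between the knockdowns 8 members were higher in shCPT-1 and 6 lower, against 17.8% and 17.7% of all tested genes, with a median of 0.02. CAT (0.57 ± 0.05), GPX3 (0.55 ± 0.05), GPX4 (0.47 ± 0.05), ABCC3 (0.44 ± 0.07), BLVRB (0.31 ± 0.07) and SOD2 (0.29 ± 0.07) were higher in shCPT-1, with adjusted p of 3.71e-06 to 0.00806. TXNRD1 (-0.32 ± 0.04), KEAP1 (-0.25 ± 0.04), GPX8 (-0.22 ± 0.06) and SRXN1 (-0.21 ± 0.04) were lower in shCPT-1 than in shCPT-2, with adjusted p of 4.47e-05 to 0.00991. The other 4 calls, GPX1, ABCC1, GCLC and GSTP1, were each lost without at least 1 single array.

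**Figure D3:**
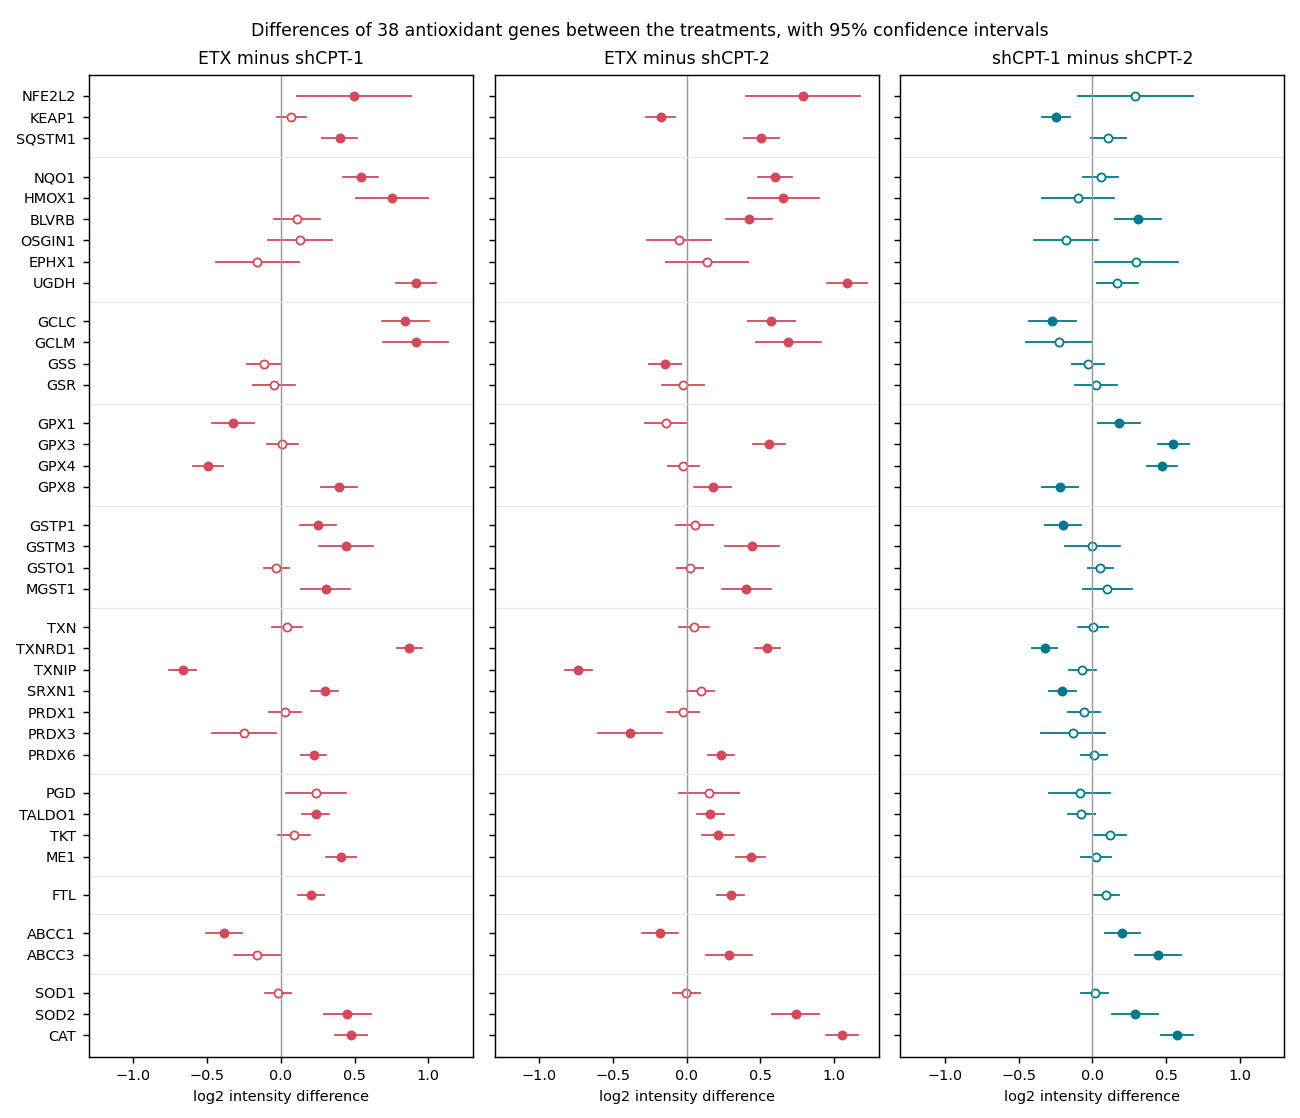
Difference of mean log2 intensity between treated groups (x axis, log2 units) for the 38 genes in the same order as against scramble; lines are 95% confidence intervals and filled points are called at an adjusted p under 0.05. UGDH at 1.08 and CAT at 1.05 lie farthest right in ETX minus shCPT-2, and CAT, GPX3 and GPX4 lie at 0.47 to 0.57 in shCPT-1 minus shCPT-2.

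Several kept probe sets were available for 23 of the 38 members. With ETX, all kept probe sets were called in 1 direction for 11 of the 23 (CAT, GCLC, GCLM, GPX3, GPX8, GSS, GSTM3, ME1, MGST1, NQO1 and TXNIP), with p-values adjusted over all kept probe sets. For 8 more at least 1 was called and none the other way, and for 4 none was called. In shCPT-1 all were called alike for 3 members (FTL, GSS and TXNIP) and in shCPT-2 for 5 (FTL, GPX3, GSS, PRDX3 and TKT). The same counts were not made over all genes with several kept probe sets, so these are not a result about the members as a set. For GCLM the 3 probe sets gave 0.69 to 1.0 with ETX, -0.35 to 0.06 in shCPT-1 and -0.17 to 0.27 in shCPT-2.

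**Figure D4:**
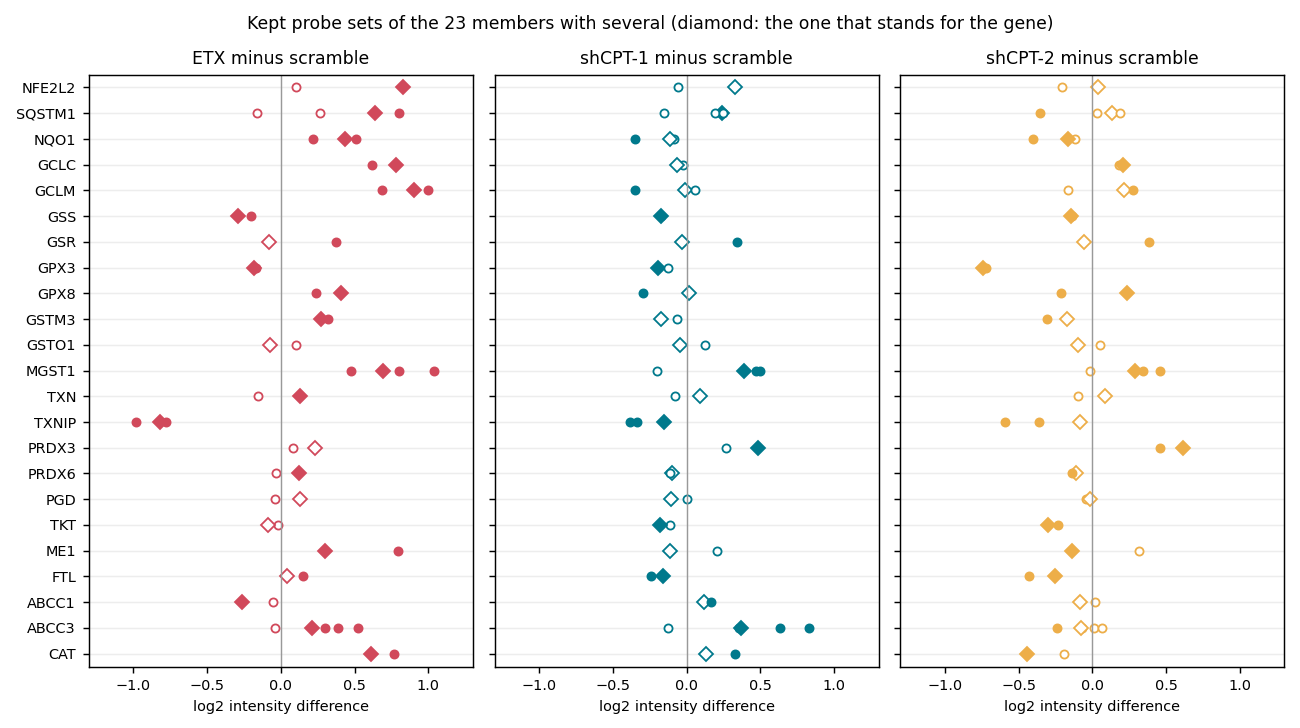
Difference from scramble (x axis, log2 units) of every kept probe set of the 23 members that have several; a diamond marks the probe set that stands for the gene, circles the others, and filled marks are called with p-values adjusted over all kept probe sets. With ETX the probe sets of GCLM, GCLC, MGST1 and TXNIP lie on 1 side of 0, whereas those of GPX8 lie at 0.23 and -0.21 in shCPT-2.

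The signal of the array's actin controls, 3′ minus 5′, which is larger where RNA or labelled copies are shorter, differed among the arrays. It was 2.25, 2.19 and 1.76 log2 units in scramble, 1.68, 1.78 and 1.78 with ETX, 1.47, 1.91 and 1.82 in shCPT-1 and 1.68, 1.91 and 1.45 in shCPT-2. Scramble 3 had the lowest value in its group and the highest NFE2L2, GCLM, GCLC, MGST1 and PRDX3, while TXNRD1 and TXNIP varied by at most 0.03 among the scramble arrays. With this signal as a covariate the ETX change of NFE2L2 was 0.49 ± 0.12 (adjusted p = 0.013; over its 24 alternatives 8.19e-06 to 0.0166), of GCLM 0.74 ± 0.09, of MGST1 0.57 ± 0.06 and of TXNRD1 0.75 ± 0.04, and all 4 were called. The covariate ended 6 calls with ETX (ABCC3, GPX3, GSTM3, PRDX1, PRDX6 and TXN), 3 in shCPT-1 (GPX3, GSS and TXNRD1) and 5 in shCPT-2 (GCLC, GPX8, GSS, MGST1 and PRDX1). It added as lower GCLC, GSTM3, ME1, NQO1, OSGIN1 and PGD in shCPT-1 and GSTM3, NFE2L2, PGD and TALDO1 in shCPT-2, and as higher ABCC1 in shCPT-1. NFE2L2 in shCPT-2 went from 0.04 to -0.37 ± 0.13 (adjusted p = 0.0469), whereas without the 4 arrays that correlate least with their own group it rose by 0.41 (adjusted p = 0.00382); over its alternatives adjusted p ran from 0.00382 to 0.968, and its direction there depends on the setting. MGST1 in shCPT-2 went from 0.29 to 0.13 ± 0.06 (adjusted p = 0.128) and was no longer called. With the covariate 15 members rose and 6 fell with ETX, 8 and 13 in shCPT-1 and 4 and 15 in shCPT-2. Without those 4 arrays, 1 a group (scramble 3, ETX 3, shCPT-1 1 and shCPT-2 2), 22 rose and 7 fell with ETX, 11 and 13 in shCPT-1 and 14 and 11 in shCPT-2. The shares of all tested genes called under these settings were not counted.

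**Figure D5:**
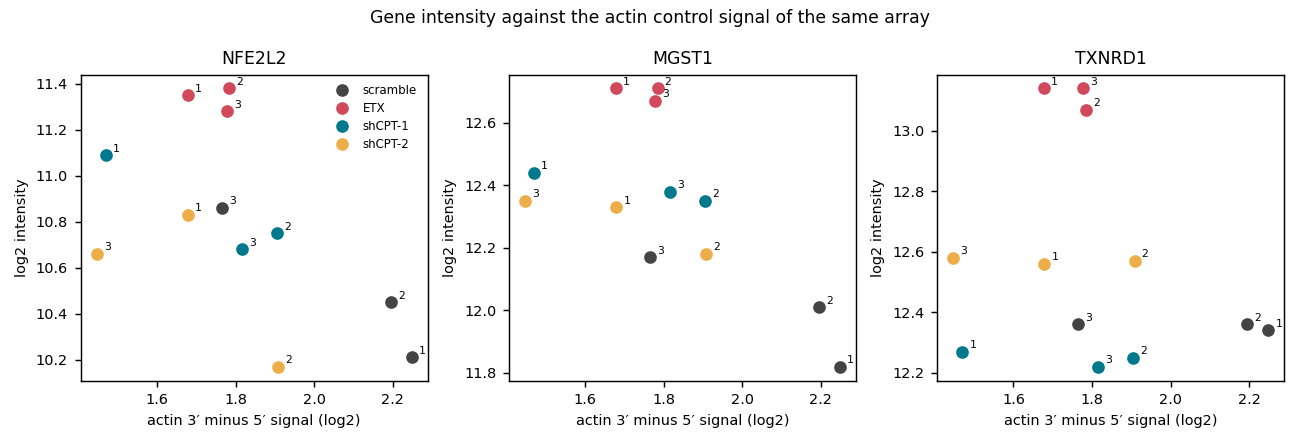
Log2 intensity of NFE2L2, MGST1 and TXNRD1 (y axes) against the actin 3′ minus 5′ signal of the same array (x axis, log2 units), 1 point per array with its replicate number, coloured by group. Scramble 1 and 2 lie at 2.25 and 2.19 with the lowest MGST1 values, and the ETX arrays at 1.68 to 1.78; TXNRD1 stays within 12.34 to 12.36 across the scramble arrays.

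A further list of 72 genes of the same pathways, of which 62 were tested, gave 24 higher and 6 lower with ETX (21.9% and 19.4% of all tested genes; median change of the list 0.09). It gave 18 and 12 in shCPT-1 (23.1% and 18.0% of all tested genes, median 0.05) and 25 and 19 in shCPT-2 (25.6% and 20.5%, median 0.07). This list too was chosen with earlier results of these data known, so its shares are not an independent test. By the smallest p-values, the rises with ETX were led by SLC7A11 (1.32 ± 0.05) and SLC3A2 (0.82 ± 0.06), the chains of the transporter that imports cystine for glutathione, by CHAC1 (1.70 ± 0.08), which degrades glutathione, and by SESN2 (0.84 ± 0.06), a stress-induced sestrin. The leading falls with ETX were CBR3, a carbonyl reductase (-0.33), TXN2 and TXNRD2, the mitochondrial thioredoxin and its reductase (-0.27 and -0.28), and PARK7, also known as DJ-1 (-0.22). Adjusted p for these 8 ran from 7.63e-09 to 0.00427.

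In shCPT-1 the same rule named CHAC1 (0.71), SESN2 (0.45), the glutathione transferase GSTM4 (0.43) and the NRF2 relative NFE2L3 (0.38) as higher. CBR3 (-0.56), mitochondrial malic enzyme ME3 (-0.50), the ubiquinone reductase AIFM2 (-0.37) and the methionine sulfoxide reductase MSRA (-0.28) were lower. In shCPT-2 the glutaredoxin GLRX3 (0.97), the exporter ABCC5 (0.58), SLC7A11 (0.29) and GSTM4 (0.29) were higher, and CBR3 (-0.80), the quinone reductase NQO2 (-0.59), the mitochondrial glutaredoxin GLRX5 (-0.55) and the peroxiredoxin PRDX2 (-0.46) lower. GSTM4 and GLRX3 were read by probe sets with the suffix _x. Adjusted p for these 16 was at most 0.00146.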

How the data were processed

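The values are the authors' deposited intensities, linear in scale, made with RMA per the submitters' processing notes. Not given in the sources used here: its version and settings. Intensities were turned into log2. Of 54675 probe sets, 62 were controls; 41091 of the rest had 1 gene symbol in the platform annotation, 1801 several and 11721 none. Probe sets above the median of 3 or more arrays were kept (23564 with 1 symbol), and a gene's brightest kept probe set stood for it. Groups, taken from the labels, were compared with limma 3.58.1 under R 4.3.3 (data.table, version 1.17.8), with lmFit and eBayes over all 12 arrays; degrees of freedom were 8 (residual) and 4.12 (prior). Tests were two-sided, with Benjamini-Hochberg adjustment over 12886 genes within a comparison and calls under 0.05. An exact test of 3 against 3 cannot go below 0.1 and was not used. Plots were made in matplotlib 3.10.9 (Python 3.11.15, pandas 2.3.3, numpy 2.4.6).

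Described array by array are NFE2L2, KEAP1 and members called against scramble with a change of at least 0.5 and no overlap; of other pathway genes, the 4 per direction with the smallest p. The members and lists were chosen with earlier results of these data known. On data simulated for ETX against scramble with 12886 genes, 88 of 100 changes of 0.5 and 98 of 100 of 1 were recovered, with 13 false calls among 12686 genes. The simulated noise was independent for each gene and array and few genes were changed. These rates therefore need not hold for the real arrays. No 2 arrays held identical values. For arrays their number limits the precision. Alternatives were other filters, probe-set choices and scalings, array weights, an actin covariate, a replicate block and leaving out arrays.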

Additional observations from a re-analysis of the deposited data

How the results depend on the processing

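The alternatives numbered 25. The count of members that rose with ETX stayed within 1.5 times of 20 under each, and so did the count that fell, of 7. Leaving out 1 array at a time gave, for higher and lower, 14 to 21 and 6 to 7 with ETX, 7 to 10 and 7 to 10 in shCPT-1, 5 (without scramble 2) to 10 and 9 to 12 in shCPT-2, 18 to 21 and 4 to 5 for ETX against shCPT-1, 20 to 21 and 3 (without ETX 1 or shCPT-2 2) to 6 for ETX against shCPT-2, 6 to 9 and 4 to 7 between the knockdowns, and 30 to 33 in the F test. Counts moved further elsewhere. Without probe sets named _x, _s or _a, 4 rose and 5 fell in shCPT-1 and 2 were lower with ETX than in shCPT-1. With array weights 12 rose and 16 fell in shCPT-1, 14 rose in shCPT-2, 7 were lower with ETX than in shCPT-1, and 14 were higher and 13 lower in shCPT-1 than in shCPT-2. Without the 4 arrays that correlate least with their group 11 rose in shCPT-1, 14 in shCPT-2, 7 were lower with ETX than in shCPT-1 and 10 lower in shCPT-1 than in shCPT-2. With the actin covariate 4 rose in shCPT-2. How many of all tested genes were called under each alternative was not counted. Whether these shifts are particular to the members is therefore not known, and their cause was not tested.

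Of 31 called changes of the genes described array by array, 22 were called under every alternative that gave a value for the gene. These were 24 for each gene, and 23 for TXNIP, which has no probe set without such a suffix. Testing each probe set on its own gives no single value for a gene and is not among them. SQSTM1 with ETX was 0.26 (adjusted p = 0.0883, the highest of its 24 alternatives, the lowest 5.61e-08) without probe sets named _x, _s or _a. The sign turned for 10 changes, 3 of them called: without probe sets named _x, _s or _a MGST1 was -0.20 in shCPT-1 and -0.0167 in shCPT-2, and SQSTM1 -0.15 in shCPT-1. The others were not called to begin with. Leaving out 1 array gave GCLC in shCPT-1 from -0.14 to 0.00904 (without scramble 3), GCLM from -0.11 to 0.12 and HMOX1 from -0.0631 to 0.13, and NFE2L2 in shCPT-2 from -0.109 to 0.23. In shCPT-1 GCLM was 0.0091 with median centring, 0.0343 with weights, 0.0859 without the 4 arrays, and 0.123, 0.0101 and 0.0037 without scramble 3, shCPT-1 2 and shCPT-1 3. HMOX1 there was -0.0522 with weights and -0.0486 and -0.0631 without scramble 1 and shCPT-1 3, and NFE2L2 -0.0226 with actin. In shCPT-2 HMOX1 was -0.0728 with weights. NFE2L2 there was -0.0834 as the mean of its probe sets, -0.37 with actin, and -0.0129 to -0.109 (-0.0978 without shCPT-2 1) in 3 fits without 1 array. SQSTM1 there was -0.00076 as the mean of its probe sets and -0.36 without those named _x, _s or _a. Under the main fit and every alternative, the median change over all tested genes or probe sets was at most 0.028 in size in each comparison.

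For arrays of different groups with the same replicate number, correlations of their deviations from the group means ran from -0.46 to 0.33, with 8 of 18 above 0.1. For different numbers they ran from -0.45 to 0.61, with 15 of 36 above 0.1. Arrays with the same number were thus not more alike by this measure, which cannot settle whether they were paired. With the number as a replicate block, 19 members rose and 7 fell with ETX, 7 and 9 in shCPT-1 and 8 and 11 in shCPT-2; 20 and 4 were higher and lower for ETX against shCPT-1, 21 and 5 against shCPT-2, 8 and 6 between the knockdowns, and 32 differed in the F test.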
